A study of Mus musculus with 9 samples.

Results

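Globin genes and a small set of other genes of red cell precursors were followed in heart tissue of C57BL/6 mice given oxaliplatin or vehicle. The set was chosen by symbol and holds 8 genes, all of which have a row among the 13795 genes of the deposited table: the alpha-globin genes Hba-a1 and Hba-a2, the beta-globin genes Hbb-bs and Hbb-bt, Alas2, Slc4a1, Bpgm and Fech. RNA was sequenced from 5 hearts of mice given oxaliplatin at 10 mg/kg, a platinum drug used against cancer, and from 4 hearts of mice given vehicle. Hearts of both groups were collected after 8 weeks. All 9 samples are labelled as the same strain and tissue. The sources used here do not give age, the dosing schedule or whether blood was flushed from the hearts. Nothing in the labels ties samples to separate animals beyond their numbers, so a p-value reflects sample-to-sample spread that may be technical.

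Adult hemoglobin is a tetramer of alpha and beta chains, each with a heme group. Mature mammalian red cells have no nucleus, and the globin messages of blood are carried mostly by reticulocytes, the youngest red cells in the circulation. Heme is made in most cells, but its first step is catalysed by ALAS2 in erythroid precursors and by ALAS1 elsewhere. Ferrochelatase, the product of Fech, inserts the iron in both. Slc4a1 encodes band 3, the anion exchanger of the red cell membrane, and Bpgm encodes bisphosphoglycerate mutase, whose product loosens the hold of hemoglobin on oxygen. Whole heart contains blood, so that in this tissue transcripts of the globins measure erythroid RNA in the sample, and fewer erythroid cells cannot be told apart from less RNA per cell.

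The promoters of the globin genes, Alas2 and Bpgm are shown because most of these genes varied together across the samples. A RefSeq promoter on GRCm38.p6 was matched for 6 of the 8 genes, and those of Slc4a1 and Fech are named only. Capitals mark letters of 4 motifs on either strand. GATAA is a core that GATA factors bind. The letters CACCC are bound by Krüppel-like factors. The box with the letters CCAAT is common in promoters of many kinds. The last motif, TATAA, stands for the TATA box. The 250 bases before the annotated start are given 5′ to 3′, for Hba-a1 from chr11:32283422-32283671 on the plus strand, for Hbb-bs from chr7:103827929-103828178 on the minus strand, for Hbb-bt from chr7:103813924-103814173 on the minus strand, for Alas2 from chrX:150547167-150547416 on the plus strand and for Bpgm from chr6:34476106-34476355 on the plus strand.
Hba-a1 promoter: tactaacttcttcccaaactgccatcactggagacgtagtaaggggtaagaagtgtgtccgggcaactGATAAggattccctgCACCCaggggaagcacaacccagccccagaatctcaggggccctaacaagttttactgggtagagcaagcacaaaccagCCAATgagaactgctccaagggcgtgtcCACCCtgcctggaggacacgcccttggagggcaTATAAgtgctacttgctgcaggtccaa
Hbb-bs promoter: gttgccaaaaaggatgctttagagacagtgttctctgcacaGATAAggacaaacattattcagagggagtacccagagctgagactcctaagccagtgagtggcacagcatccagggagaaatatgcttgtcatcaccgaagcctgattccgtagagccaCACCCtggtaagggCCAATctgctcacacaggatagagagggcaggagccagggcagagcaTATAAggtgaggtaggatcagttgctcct
Hbb-bt promoter: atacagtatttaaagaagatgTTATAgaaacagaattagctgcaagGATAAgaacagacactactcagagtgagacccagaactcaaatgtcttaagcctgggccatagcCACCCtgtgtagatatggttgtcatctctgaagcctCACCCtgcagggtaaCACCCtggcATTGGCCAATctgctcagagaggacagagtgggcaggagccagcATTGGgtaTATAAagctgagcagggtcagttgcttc
Alas2 promoter: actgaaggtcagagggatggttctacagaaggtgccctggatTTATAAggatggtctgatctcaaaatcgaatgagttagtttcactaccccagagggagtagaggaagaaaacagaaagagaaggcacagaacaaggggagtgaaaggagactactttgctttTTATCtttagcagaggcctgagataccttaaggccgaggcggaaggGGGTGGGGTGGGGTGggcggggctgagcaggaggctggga
Bpgm promoter: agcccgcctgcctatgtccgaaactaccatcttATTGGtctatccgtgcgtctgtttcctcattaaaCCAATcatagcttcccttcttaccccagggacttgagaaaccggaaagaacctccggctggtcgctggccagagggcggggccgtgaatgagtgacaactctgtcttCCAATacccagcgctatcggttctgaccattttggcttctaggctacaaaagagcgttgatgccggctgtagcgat
The Hba-a2 promoter, at chr11:32296242-32296491 on the plus strand, matched that of Hba-a1 at 247 of 247 bases compared after a shift of 3 bases. All 4 motifs were present in each globin promoter. The Alas2 window lacked the CCAAT letters and held the other motifs, with the TATA letters on both strands at overlapping positions. The Bpgm window held the CCAAT letters alone. Of 32851 promoters of the same length, 22.6% held the GATA core, 33.8% the CCAAT box, 52.0% the letters of Krüppel-like factors and 22.8% those of the TATA box, so a match to any of them is common and is a description of these letters.

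The members of each globin pair are near-identical, which bears on how far their counts can be kept apart. In the GENCODE M21 transcripts, the longest open reading frames of Hba-a1 and Hba-a2 differed at 1 of 429 bases, and those of Hbb-bs and Hbb-bt at 1 of 444 bases. The stretch of the beta-globin frames around that base is given with the differing base in capitals.
Hbb-bs: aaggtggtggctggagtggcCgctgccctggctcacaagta
Hbb-bt: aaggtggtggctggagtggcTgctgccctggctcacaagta
Of all 50-base stretches of the transcript, 67.5% of those in Hba-a1 were also in Hba-a2, and 65.8% of those in Hbb-bs were also in Hbb-bt. In the other direction the shares were 86.9% for Hba-a2 and 58.3% for Hbb-bt. A read of 50 bases or fewer that falls within a shared stretch cannot be assigned by sequence, while a longer one may reach a differing base. Values of single globin genes are thus uncertain, to an extent that was not measured.

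Estimated depth ran from 29.8 M to 36.2 M reads in all samples but vehicle 1, which had 28.5 M. Samples correlated with r from 0.922 to 0.982 across genes, which are not independent replicates. Of 12 cardiomyocyte markers, all 12 were in the table, with summed levels of 1301000 to 1789000 normalized counts in oxaliplatin samples and 1655000 to 2054000 in vehicle samples. All 12 had negative log2 fold changes, with a median of -0.38, and 3 were lower in limma, none of which passed after quantile normalization; their part in the erythroid values was not tested. In limma, 694 of 13788 genes tested were lower in oxaliplatin samples (5.03%) and 1272 were higher (9.23%). The numbers were 965 and 1151 after quantile normalization, and 411 and 1355 with equal totals of all genes other than globins and mitochondrially encoded genes. Oxaliplatin 3 stood apart from the other oxaliplatin samples for 7 of the 8 erythroid genes, and results are given with and without it.

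Globin transcripts were scarce in 4 of the 5 oxaliplatin hearts and abundant in the remaining one and in all vehicle hearts. Together the 4 globin genes took 0.0789%, 0.0255%, 1.19%, 0.143% and 0.115% of all normalized counts in oxaliplatin samples 1 to 5, against 1.66%, 1.46%, 0.592% and 0.900% in vehicle samples 1 to 4. The share averaged 0.310% ± 0.494 in oxaliplatin samples and 1.15% ± 0.493 in vehicle samples (SD, n = 5 and n = 4). Oxaliplatin samples 1, 2, 4 and 5 lay below every vehicle sample, and oxaliplatin 3 lay inside the vehicle range. The share of all genes tested with these 4 samples below every vehicle sample was not counted.

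Hba-a1 had 8333, 2047, 89803, 12029.5 and 10539.5 normalized counts in oxaliplatin samples 1 to 5, against 165688, 145696, 59499 and 85196 in vehicle samples 1 to 4. Hba-a2 had 7398, 1760.2, 84236, 11122 and 9096 normalized counts in oxaliplatin samples, against 147213, 135551, 57352 and 81611.5 in vehicle samples. For both alpha-globin genes the groups overlapped through oxaliplatin 3, and the highest of the other 4 oxaliplatin samples reached 0.202 and 0.194 times the lowest vehicle sample. Hbb-bs had 9093, 2419.96, 121998, 12685 and 11590.4 normalized counts in oxaliplatin samples, against 205655, 209610, 80928 and 80669 in vehicle samples. Hbb-bt had 3695, 1487, 56713, 6242 and 5278 normalized counts in oxaliplatin samples, against 45441, 48172, 20735 and 23399 in vehicle samples. Among the globin genes, Hbb-bt was the one for which oxaliplatin 3 was the highest of all 9 samples. Within the oxaliplatin group the highest sample exceeded the lowest 43.9-fold for Hba-a1 and 50.4-fold for Hbb-bs, and within the vehicle group 2.78-fold and 2.60-fold.

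**Figure D1:**
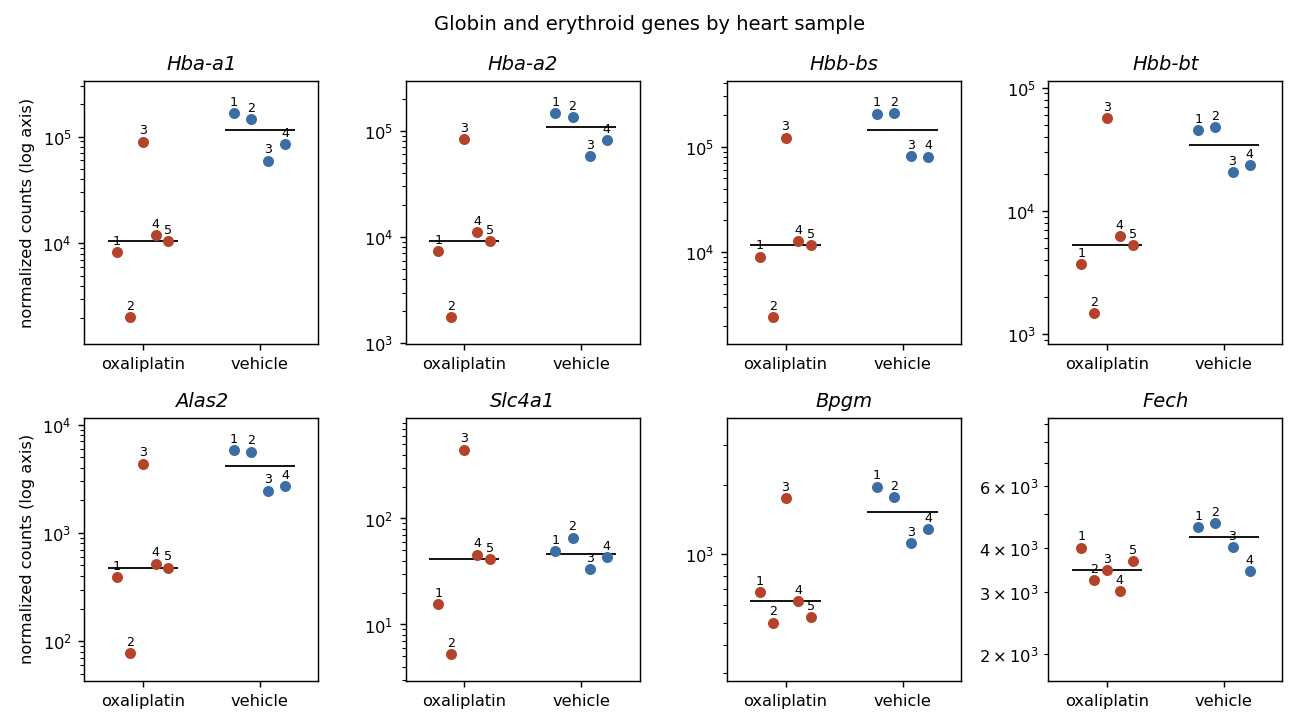
Normalized counts of the 8 genes in each heart sample (log axis, a scale per panel), with oxaliplatin samples 1 to 5 left of vehicle samples 1 to 4, numbered by replicate, and the group median as a line. For Hba-a1, Hba-a2, Hbb-bs, Alas2 and Bpgm, oxaliplatin 3 lies inside the vehicle range, and for Hbb-bt above it. For all of these genes the other 4 oxaliplatin samples lie below all vehicle samples. The share of all genes tested with that arrangement was not counted. For Slc4a1 oxaliplatin 3 lies at 446, far above all other samples.

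Alas2, the erythroid enzyme of the first step of heme synthesis, followed the globins. It had 388, 77.3, 4357, 520.5 and 478 normalized counts in oxaliplatin samples 1 to 5, against 5786, 5638, 2457 and 2702 in vehicle samples 1 to 4. Oxaliplatin 2 was the lowest sample for Alas2 as for each globin gene, and the 4 samples other than oxaliplatin 3 lay below all vehicle samples.

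Bpgm had a smaller range. It had 679, 501, 1751, 623 and 528 normalized counts in oxaliplatin samples 1 to 5, against 1974, 1769, 1116 and 1287 in vehicle samples 1 to 4. Oxaliplatin 3 again lay inside the vehicle range and the other 4 oxaliplatin samples below it. Across all 9 samples its highest value was 3.94 times its lowest, where Alas2 spanned 74.9-fold and Hbb-bs 86.6-fold. Fech had 4010.1, 3243, 3452, 3008 and 3670.1 normalized counts in oxaliplatin samples, against 4588, 4702, 4031 and 3439.95 in vehicle samples. The groups overlapped for Fech without oxaliplatin 3 being high, since that sample ranked 6 of 9, and the whole range was 1.56-fold.

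Slc4a1 was distributed differently. It had 15.5, 5.28, 446, 45.5 and 41.2 normalized counts in oxaliplatin samples 1 to 5, against 49.0, 65.9, 33.3 and 43.4 in vehicle samples 1 to 4. Oxaliplatin 3 was 9.31 times the vehicle mean, while oxaliplatin 4 and 5 lay inside the vehicle range and oxaliplatin 1 and 2 below it. The lowest value rested on an estimated 6 reads and the highest on an estimated 509 reads.

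With all 9 samples, 0 of the 8 genes passed limma at an adjusted p under 0.05, where 5.03% of all genes tested were lower. All 8 had negative log2 fold changes, with a median of -2.63 beside -0.02 over all genes tested, and 6 had an unadjusted p under 0.05, as did 28.8% of all genes tested. Hbb-bs averaged 31560 ± 50710 normalized counts in oxaliplatin samples and 144200 ± 73250 in vehicle samples (SD, n = 5 and n = 4). Its log2 fold change was -3.30 with a standard error of 1.06 (limma adjusted p = 0.0829). The log2 fold change was -3.20 for Hba-a1, -3.27 for Hba-a2 and -2.34 for Hbb-bt (limma adjusted p = 0.0771, 0.0766 and 0.172). It was -2.92 for Alas2, -1.05 for Bpgm and -0.27 for Fech (limma adjusted p = 0.119, 0.0834 and 0.183). Slc4a1, at -0.28 with a standard error of 1.05, had an adjusted p of 0.891 in limma, and its arithmetic mean was higher in oxaliplatin samples, at 110.7 ± 188 against 47.9 ± 13.6 normalized counts.

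Among samples left out singly, oxaliplatin 3 alone changed these calls. Without it, 6 of the 8 genes passed, all lower in oxaliplatin samples, where 3.49% of all genes tested were lower. This sample is singled out for its high values of these same genes, so the p-values without it depend on that choice and are given as a description of the other 8 samples. The 6 were the 4 globin genes, Alas2 and Bpgm. The log2 fold change of Hbb-bs was then -4.10, with a standard error of 0.62, which is 5.82% of the vehicle level (limma adjusted p = 0.00930). Hba-a1 stood at 6.49%, Hba-a2 at 6.13%, Hbb-bt at 11.4%, Alas2 at 7.70% and Bpgm at 38.7% of the vehicle level (limma adjusted p = 0.0108, 0.0104, 0.0103, 0.0210 and 0.00232). Slc4a1 (-1.16) and Fech (-0.27) did not pass without it (limma adjusted p = 0.232 and 0.262). Leaving out any other single sample gave 0 of the 8 genes. With all samples kept, some calls also changed with the moderation or sample weights in limma, as given under the dependence on processing.

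**Figure D2:**
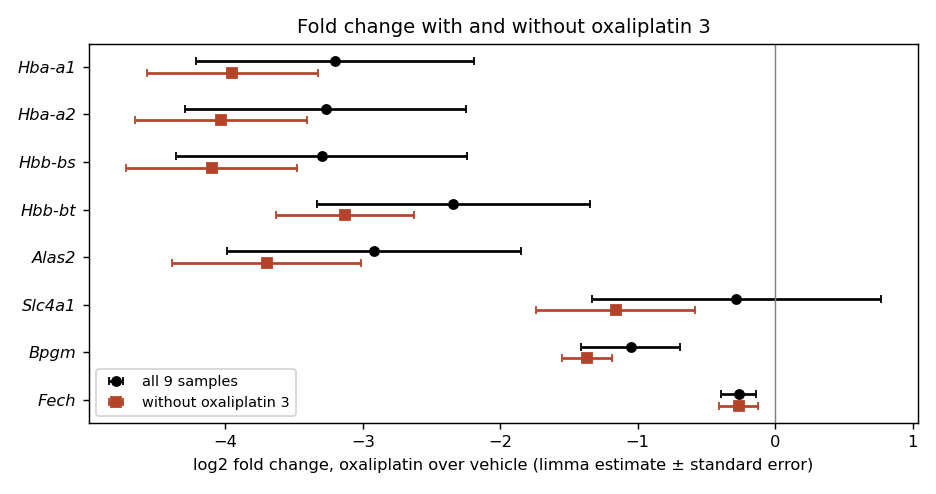
Log2 fold change of oxaliplatin over vehicle for each of the 8 genes, with its standard error, from limma with all 9 samples (black circles) and without oxaliplatin 3 (red squares). The globin genes and Alas2 run from -3.30 to -2.34 with all samples and from -4.10 to -3.13 without oxaliplatin 3, with shorter error bars, and Fech stays at -0.27.

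Ratios between the genes within a sample do not change with the scaling of that sample. They were examined after the values had been seen and are described without a test. Hba-a2 over Hba-a1 varied little, at 0.888, 0.860, 0.938, 0.925 and 0.863 in oxaliplatin samples 1 to 5, against 0.888, 0.930, 0.964 and 0.958 in vehicle samples 1 to 4. The stretches that these transcripts share bear on this ratio, whose dependence on read assignment was not tested. Alas2 per 1000 globin counts was 13.6, 10.0, 12.4, 12.4 and 13.1 in oxaliplatin samples, against 10.3, 10.5, 11.2 and 9.97 in vehicle samples. The Alas2 ratio varied 1.36-fold over samples whose Alas2 level varied 74.9-fold, and its groups overlapped.

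Some other ratios separated the groups, with oxaliplatin 3 on the side of the other oxaliplatin samples. Hbb-bt over Hbb-bs was 0.406, 0.614, 0.465, 0.492 and 0.455 in oxaliplatin samples 1 to 5, against 0.221, 0.230, 0.256 and 0.290 in vehicle samples 1 to 4. Hbb-bt made up 32.6% ± 3.40 of the counts of the beta-globin pair in oxaliplatin samples and 19.9% ± 1.97 in vehicle samples (SD, n = 5 and n = 4, counts not adjusted for length). The groups did not overlap, and the shared stretches of these transcripts bear on this ratio, whose dependence on read assignment was not tested. Slc4a1 per 1000 globin counts was 0.545, 0.685, 1.26, 1.08 and 1.13 in oxaliplatin samples, against 0.0869, 0.122, 0.153 and 0.160 in vehicle samples. Exact 95% Poisson intervals of the Slc4a1 reads, which cover counting error only, put the lowest oxaliplatin bound at 0.251 and the highest vehicle bound at 0.217. Alpha over beta globin counts overlapped between groups, with 0.974 to 1.23 in oxaliplatin samples and 1.09 to 1.60 in vehicle samples. Bpgm per 1000 globin counts also overlapped, at 23.8, 65.0, 4.96, 14.8 and 14.5 in oxaliplatin samples, against 3.28 to 5.11 in vehicle samples. Here oxaliplatin 3 lay inside the vehicle range, and oxaliplatin 2, lowest in globins, had the highest ratio.

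**Figure D3:**
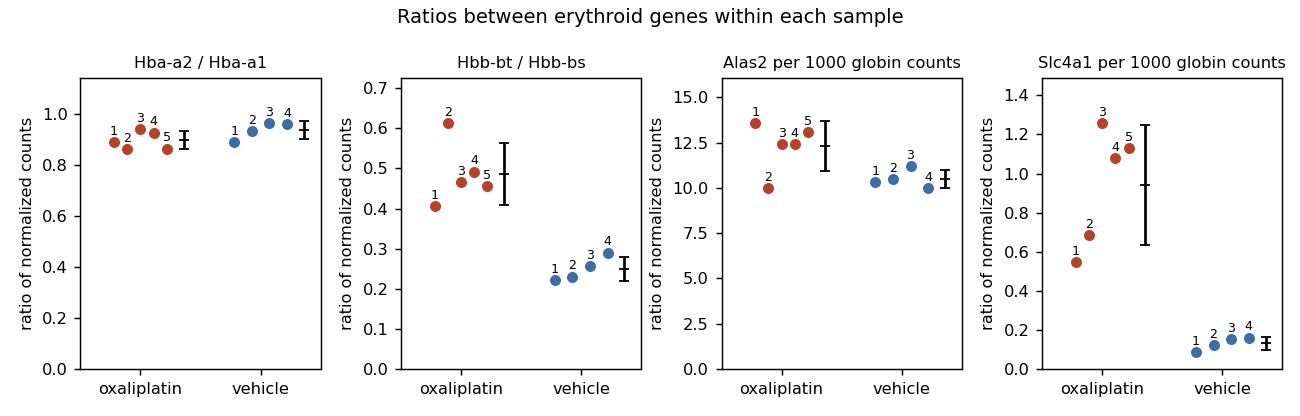
Ratios of normalized counts within each sample, numbered by replicate, with oxaliplatin left of vehicle and the mean ± SD of each group beside its points; axes start at 0. Hba-a2 over Hba-a1 and Alas2 per 1000 globin counts overlap between groups, while Hbb-bt over Hbb-bs (0.406 to 0.614 against 0.221 to 0.290) and Slc4a1 per 1000 globin counts (0.545 to 1.26 against 0.0869 to 0.160) do not.

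Of 22 genes that make and move heme, Alas2 and Fech among them, all 22 were tested, 3 were lower in oxaliplatin samples, beside 5.03% of all genes tested, 0 were higher and 19 did not pass. Of the 22, 18 had negative log2 fold changes, and the list median was -0.23, beside -3.24 for the 4 globin genes. The 3 were the mitochondrial glycine carrier Slc25a38, at a log2 fold change of -0.69, Uros, which closes the tetrapyrrole ring, at -0.56, and the mitochondrial transporter Abcb10, at -0.41 (limma adjusted p = 0.00778, 0.0110 and 0.0363). Slc25a38 had 337, 451, 432, 338 and 323 normalized counts in oxaliplatin samples, against 600, 617, 712 and 501 in vehicle samples, without overlap. Groups without overlap on the lower side made up 5.93% of all genes tested. For Slc25a38, Uros and Abcb10, oxaliplatin 3 lay below every vehicle sample. When each sample was left out in turn, Slc25a38 and Uros passed every time, and Abcb10 did not pass without oxaliplatin 1, 3 or 4 or without vehicle 2, 3 or 4. Abcb10 was also lost with equal totals without globins and mitochondrially encoded genes and without trend or robust moderation (limma adjusted p = 0.158 and 0.0508). Alas1, the enzyme of the first step outside erythroid cells, named after its values were seen, had a log2 fold change of 0.24 and did not pass (limma adjusted p = 0.409). The iron importer mitoferrin, Slc25a37, named after its values were seen, was lower without oxaliplatin 3 (log2 fold change -0.95, limma adjusted p = 0.00995). Then 4 genes of the list were lower, Alas2 among them, beside 3.49% of all genes tested. Oxaliplatin 3 was the highest of all 9 samples for Slc25a37, at 717 normalized counts. It was highest for 9.09% of the genes of this list, beside 8.68% of all genes tested. The calls of Slc25a37 and Alas2 thus depend on leaving out that sample and are given as a description.

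Of 28 genes of the red cell membrane and its skeleton, 20 were tested, 2 were lower, 1 was higher and 17 did not pass (list median -0.07), beside 5.03% lower and 9.23% higher among all genes tested. The water channel Aqp1, also made by endothelial cells, had 529, 1462, 906, 995 and 1054.5 normalized counts in oxaliplatin samples, against 2193, 2968, 2392 and 2524 in vehicle samples (log2 fold change -1.41, limma adjusted p = 0.00333). Beta-spectrin, Sptb, fell by 0.73 and the complement regulator Cd55 rose by 1.03 (limma adjusted p = 0.00912 and 0.0158). Oxaliplatin 3, with globins at vehicle levels, was the lowest of all 9 samples for Sptb, at 653 normalized counts. Aqp1 and Sptb passed whichever sample was left out, and Cd55 did not pass without vehicle 3 (limma adjusted p = 0.0590).

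Of 29 genes tied to reticulocyte maturation, 26 were tested, 2 were lower, 2 were higher and 22 did not pass (list median -0.19), beside 5.03% lower and 9.23% higher among all genes tested. The ubiquitin ligases Mkrn1 and Rnf123 fell by 0.82 and by 0.39, while Ube2c, a mitotic ubiquitin-conjugating enzyme, rose by 2.20 and Bcl2l1, which guards against apoptosis, rose by 1.04 (limma adjusted p = 0.0173, 0.0245, 0.0131 and 0.0226). Ube2c passed whichever sample was left out, Mkrn1 did not pass without vehicle 1 or 2, Rnf123 did not pass without oxaliplatin 3 or 4 or vehicle 2, 3 or 4, and Bcl2l1 did not pass without oxaliplatin 3, 4 or 5 or vehicle 1 or 3. Neither Mkrn1 nor Rnf123 passed with equal totals without globins and mitochondrially encoded genes (limma adjusted p = 0.0556 and 0.0817). Without oxaliplatin 3, 5 genes of the list were lower, beside 3.49% of all genes tested. Among them was Tent5c, named after its values were seen, at a log2 fold change of -2.52 (limma adjusted p = 0.0108). Oxaliplatin 3 was the highest of all 9 samples for Tent5c, at 501 normalized counts. It was highest for 15.4% of the genes tested in this list, beside 8.68% of all genes tested. The call of Tent5c thus depends on leaving out that sample and is given as a description. Trim10 had 9.56, 6.16, 102, 10.6 and 10.8 normalized counts in oxaliplatin samples, against 32.3, 16.8, 11.8 and 15.1 in vehicle samples, with oxaliplatin 3 highest.

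Of 18 red cell enzymes of glycolysis and oxidant defence, 16 were tested, 4 were higher, 1 was lower and 11 did not pass (list median 0.19), beside 9.23% higher and 5.03% lower among all genes tested. Gpx1, Cyb5r3, Pgam1 and Hk1, which many tissues express, rose by 0.56, 0.73, 0.55 and 0.50, and Sod1 fell by 0.49 (limma adjusted p = 0.0125, 0.0133, 0.0189, 0.0248 and 0.0147). Gpx1 passed whichever sample was left out, and the other 4 calls were lost without vehicle 3 (Cyb5r3), vehicle 1 or 2 (Pgam1), vehicle 2 or 3 (Sod1) and any of 6 samples (Hk1). The groups did not overlap for any of the 4 higher genes, as for 8.99% of all genes tested on that side. Without oxaliplatin 3, 3 genes of the list were higher, where 6.79% of all genes tested were. Carbonic anhydrase Car2 had 180.4, 114, 1331, 234 and 215 normalized counts in oxaliplatin samples, against 214, 232, 188 and 171 in vehicle samples, with oxaliplatin 3 again highest. That sample was highest for 12.5% of the genes tested in this list, beside 8.68% of all genes tested. Of 23 genes of erythroid transcription and erythropoietin signalling, 14 were tested, and the genes of the erythroid regulators GATA1 and KLF1 were not among them. Of these 14, 1 was higher, 1 was lower and 12 did not pass (list median -0.08), beside 9.23% higher and 5.03% lower among all genes tested. Lyl1, a hematopoietic and endothelial transcription factor, rose by 1.23 and Stat5a, which relays cytokine receptor signals, fell by 0.63 (limma adjusted p = 0.0154 and 0.0197). Lyl1 did not pass without vehicle 2, nor Stat5a without vehicle 3 or 4 or with equal totals without globins and mitochondrially encoded genes (limma adjusted p = 0.0653).

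**Figure D4:**
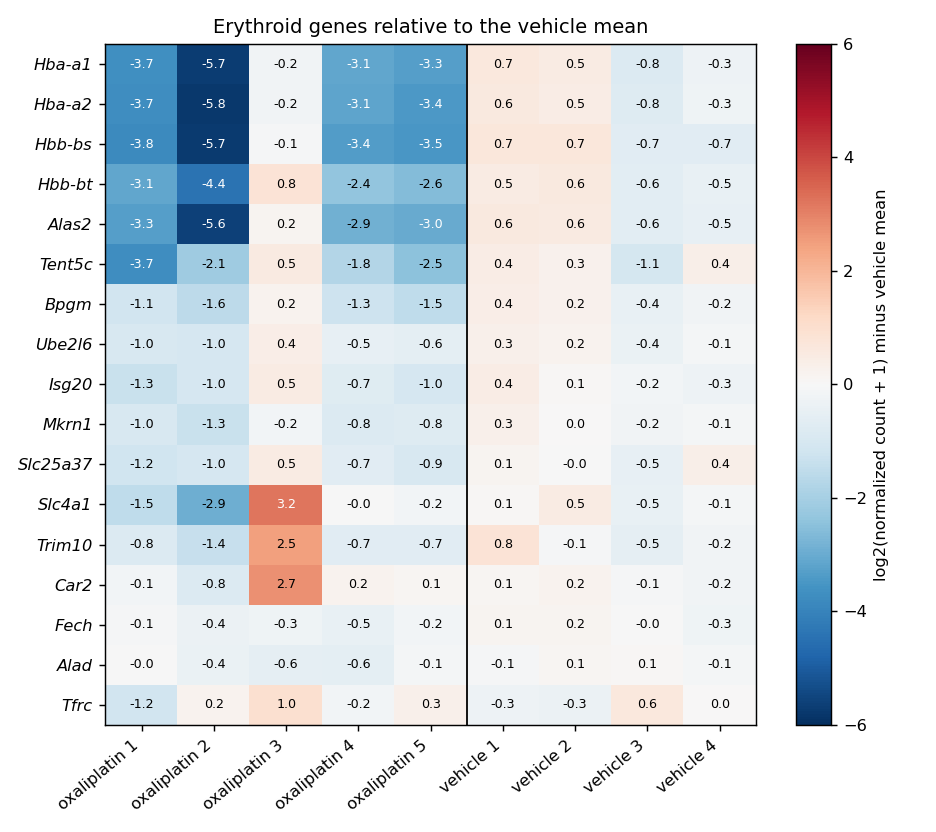
Difference of log2(normalized count + 1) from the vehicle mean for erythroid and heme genes (rows, picked after their values were seen) in oxaliplatin samples 1 to 5, left of the line, and vehicle samples 1 to 4. From Hba-a1 to Slc25a37 the oxaliplatin samples other than 3 are low and oxaliplatin 3 lies near vehicle; from Slc4a1 to Car2 oxaliplatin 3 is high; Fech and Alad differ little between samples.

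The genes whose pattern was most like that of the globins were looked up by Pearson's r over the 9 samples against the mean of the centred globin values. The points share the split into 2 groups and the position of oxaliplatin 3, so r is given as a description. Among the leading genes were Alas2 (r = 0.998), Mkrn1 (r = 0.983) and Bpgm (r = 0.958), and Ube2l6 stood at r = 0.931. The 10 most alike also held genes outside the lists used here. These were Zfp551 (r = 0.932), Zfp46 (r = 0.918), Ly86 (r = 0.914) and Lrrc15 (r = 0.911). Only 8 of 13788 genes had r above 0.95. Among them were the 4 globins, whose own mean sets the pattern, and Alas2 and Bpgm, chosen with earlier results known. Once each value was centred on its group mean, Slc4a1 (r = 0.973), Car2 (r = 0.960) and Trim10 (r = 0.936) joined Alas2 (r = 0.997) among the 10 most alike. So did Ldlrad3 (r = 0.944) and Cdca5 (r = 0.913), which are outside the lists and had r of -0.0254 and -0.281 without centring. Over all 9 samples without centring, r was 0.720 for Slc4a1 and 0.576 for Fech.

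Markers of other cells were measured in the same samples, and their counts stand beside 5.03% lower and 9.23% higher among all genes tested. Of 14 platelet and megakaryocyte genes tested, 2 were lower, among them Nrgn (log2 fold change -2.15, limma adjusted p = 0.0199), which did not pass without oxaliplatin 3 or vehicle 4. The abundant platelet chemokine Pf4 overlapped, with 918 to 2055 normalized counts in oxaliplatin samples and 886 to 1927 in vehicle samples. Of 7 neutrophil genes, 0 passed limma at an adjusted p under 0.05 and 1, Mmp9, had an unadjusted p under 0.05. S100a8, named after its values were seen, was at 21.5 to 120.0 normalized counts in oxaliplatin samples, highest in oxaliplatin 3, and at 38.7 to 274 in vehicle samples. Of 6 lymphocyte genes, 4 B cell genes were lower (Cd79a, Ighm, Igkc and Cd79b, the last not without vehicle 1 or 2), with Cd79a at 2.39 to 12.6 in oxaliplatin samples and 36.6 to 98.8 in vehicle samples (log2 fold change -3.04, limma adjusted p = 0.00230). In oxaliplatin 3, which carried globins at vehicle levels, Cd79a was 10.5. Of 11 endothelial markers 3 were higher, with summed levels of 22490 to 37570 in oxaliplatin samples and 18800 to 19840 in vehicle samples. Oxaliplatin 3 was the highest of all 9 samples for 45.5% of 11 macrophage markers and 33.3% of 6 monocyte markers. The share was 8.68% of all genes tested, 15.0% of the red cell membrane list and 21.4% of the erythroid transcription list. It was 0% of the cardiomyocyte and platelet lists. The atrial marker score, which varies with the part of the heart in the sample, was 1.04 in oxaliplatin 3 and ran from -3.41 to 2.98 in oxaliplatin samples and from -2.29 to 2.34 in vehicle samples. With this score as a covariate 0 of the 8 erythroid genes passed limma. The part of these cell markers in the erythroid values was not tested.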

How the data were processed

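RNA of 5 oxaliplatin and 4 vehicle hearts, grouped by title, was sequenced from SMARTer libraries, per the labels' protocols. The submitters' processing notes list STAR 2.5.1a, Partek and DESeq2, with no role. Genome build and strand setting were not given in the sources used here. The authors deposited one signal per gene and sample, called normalized counts per the file headers, and the highest sample of every gene was 40.6 or more, so genes low in all samples are not analysed here. Low values lay on a step per sample, which gave the estimated reads, but 73.1% to 75.9% of values were whole within 0.02, so a log-scale test was used.

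The test was limma 3.58.1 (R 4.3.3; moderation with trend and robust) of log2(normalized count + 1) in the 13788 genes whose mean reached 10. Genes with an adjusted p under 0.05 (two-sided, Benjamini-Hochberg over all of them) passed. All fold changes use this log scale, on which those of low genes are understated. The steps were tested on simulated data.

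The members and lists were chosen with earlier results of these data known. The naming rule took all 8 members, the 4 members of smallest p per erythroid list, the 2 of smallest p and the 2 most abundant per cell type list, and the 10 genes most like the globins, with and without centring on group means. Examples printed are a choice from these, and some genes that the rule named are not reported here. Alternatives were another pseudocount, filter, scaling, moderation and sample weights, an atrial covariate, the replicate number as a block and leaving out each sample.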

Additional observations from a re-analysis of the deposited data

Results flagged for a closer look

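In the oxaliplatin group 1 sample, oxaliplatin 3, lay far above the other 4 for 7 of the 8 genes. The gap to the next sample, as a share of the group's whole range, was 0.886 for Hba-a1 (89803 normalized counts), 0.886 for Hba-a2 (84236), 0.914 for Hbb-bs (121998), 0.914 for Hbb-bt (56713), 0.896 for Alas2 (4357), 0.909 for Slc4a1 (446) and 0.858 for Bpgm (1751). Each exceeds Dixon's 95% critical value of 0.710 for 5 samples. Chance marks about 5% of groups if the values are normally distributed. The gaps were taken on normalized counts, not on the log scale used in limma, and were not tested on that scale. In all, 24 groups of values were examined. The 7 genes share the same library, so the 7 marks are not independent of each other. No vehicle sample and no within-sample ratio was marked.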

How the results depend on the processing

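Each of the 4 globin genes, Alas2, Bpgm and Fech had a negative log2 fold change in all 21 alternatives, from -4.10 to -2.69 for Hbb-bs and from -0.37 to -0.19 for Fech. The number of the 8 genes that passed, 0 as reported, was 3 in limma without trend or robust moderation and 1 (Fech) with array weights, and ran from 0 to 6 when each sample was left out, with 6 without oxaliplatin 3. Slc4a1 passed in none of its 20 alternatives, and its log2 fold change was 0.43 with array weights and ran from -1.16 to 0.38 when each sample was left out. Over all genes, those higher and lower numbered 1975 and 1566 with array weights, those lower 411 with equal totals without globins and mitochondrially encoded genes, and leaving out each sample gave 789 (without vehicle 3) to 1505 higher and 321 (without vehicle 3) to 873 lower, with 373 lower without vehicle 2 and 397 without oxaliplatin 4. The cause was not tested. Replicate numbers are shared by the groups, but samples of the same number did not deviate together (r = -0.273, -0.0636, -0.0935 and 0.250 across genes), and not every sample correlated best with its own number. With the replicate block, on replicates 1 to 4, 909 genes were higher, 496 lower and 0 of the 8 genes passed, against 942 and 532 in those 8 samples without the block, a fit chosen after seeing the data. Of the list genes called in the report, Mkrn1, Rnf123, Abcb10, Bcl2l1, Pgam1, Nrgn, Ighm and Igkc did not pass with the block (limma adjusted p = 0.0686, 0.0555, 0.0578, 0.135, 0.0589, 0.132, 0.0908 and 0.104), and of these Bcl2l1 did not pass in the same 8 samples without it either (limma adjusted p = 0.0501). Depth limits Slc4a1 most, with an estimated 6 to 59 reads in 8 samples.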

Other observations

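Genes at least 2-fold higher in 1 sample than in any other were counted after the values had been seen, among 11868 genes that reached 100 normalized counts. Oxaliplatin 3 had 8 such genes, oxaliplatin 2 had 35, oxaliplatin 4 had 31 and vehicle 2 had 0. Among the 8 in oxaliplatin 3 were Slc4a1 (446 against at most 65.9 normalized counts elsewhere), Car2 (1331 against at most 234) and Trim10 (102 against at most 32.3). Apol11b, Eprn, Spp1 and Clec4n were also among them, and Apol11b had the largest ratio, at 818 against at most 80.5. The heme-degrading enzyme Hmox1, which rose in oxaliplatin samples (log2 fold change 1.72, limma adjusted p = 0.000883), had 547 to 1392 normalized counts in oxaliplatin samples and 241 to 319.7 in vehicle samples. Its level in oxaliplatin 3, 945, lay inside the range of the other oxaliplatin samples.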
